A study of Homo sapiens with 2 samples.

Results

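The 10 genes MET, MST1R, AXL, TYRO3, MERTK, FGFR1, FGFR2, FGFR3, FGFR4 and IGF1R encode receptor tyrosine kinases. They were taken by gene symbol from 27685 genes measured by RNA-seq in untreated H2087 cells and untreated H596 cells, both labelled lung adenocarcinoma and grown in RPMI medium with fetal bovine serum. All 10 were found, each with a count above 0 in both libraries, and they were listed with 45 transcripts. The study used the H2087 library to choose highly expressed genes near histone marks, and its text does not describe the H596 library. Each cell line is an established culture with 1 library, which leaves every value without replication, and no test between the cell lines was made.

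A receptor tyrosine kinase spans the cell membrane, binds a ligand outside the cell and, once paired or clustered, phosphorylates itself and adaptor proteins inside it. MET binds hepatocyte growth factor (HGF) and MST1R, also called RON, binds macrophage-stimulating protein. AXL, TYRO3 and MERTK form the TAM family, whose ligands GAS6 and protein S bridge the receptors to phosphatidylserine on dying cells. FGFR1 to FGFR4 bind fibroblast growth factors (FGFs), and IGF1R binds the insulin-like growth factors IGF1 and IGF2. Several of these receptors are known in lung cancer as drug targets or as routes of resistance to EGFR inhibitors.

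The total estimated count was 46961500 in H2087 and 55387847 in H596. Levels are given as FPKM, fragments scaled by transcript length and library size, which can be compared between genes because they are per length. Intervals after a level are 95% Wilson intervals of the gene's share of all counts, carried over to FPKM, and intervals after a fold are exact conditional binomial intervals. Both cover counting error only. A difference is H596 minus H2087 on the log2(FPKM + 1) scale, which understates the change of low genes, and a gene was called at a difference of 1 or more in size, that is, a 2-fold change of FPKM + 1. Of markers listed for the label, NKX2-1 was at 110 FPKM in H2087 against 0.508 in H596, and NAPSA had 21.9 and 0.0645. SFTPB and SFTA2 were below 1 in both libraries. The squamous markers TP63, KRT5, KRT6A and DSG3 were called higher in H596, with FPKM values of 33.9 to 106 there and 0 to 1.48 in H2087. The defining adenocarcinoma markers were thus at or near 0 in the library labelled H596, and the part of this in the results below was not tested. The epithelial markers EPCAM, KRT8 and KRT18 were called lower in H596 but stayed at 65.0 or more, while KRT7 and CDH1 were not called. Of 6 stromal markers COL1A1 (3.89 in H2087, 0.916 in H596) was called lower in H596 and DCN (0 and 9.77) higher. The other 4 were below 1 in both libraries, as were the 3 endothelial markers.

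Of the 10 receptors, 8 reached an FPKM of 1 in each library and 6 did so in both. FGFR2 and FGFR3 were below 1 in H2087, and FGFR1 and FGFR4 were below 1 in H596, though above 0.5 FPKM and, by TPM, above 1. In H2087 the levels ran from 121.8 for MET down to 0.0874 for FGFR3, in the order MET, FGFR4, MST1R, TYRO3, MERTK, IGF1R, FGFR1, AXL, FGFR2 and FGFR3. The intervals of MERTK and IGF1R overlapped there, and no other neighbours did. In H596 the order was FGFR3, MET, MST1R, FGFR2, IGF1R, TYRO3, MERTK, AXL, FGFR1 and FGFR4, from 49.6 down to 0.778, and only the last 2 overlapped. FGFR3 was thus the lowest of the 10 in H2087 and the highest in H596. In bulk RNA, fewer cells with a transcript and less of it per cell cannot be told apart.

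**Figure D1:**
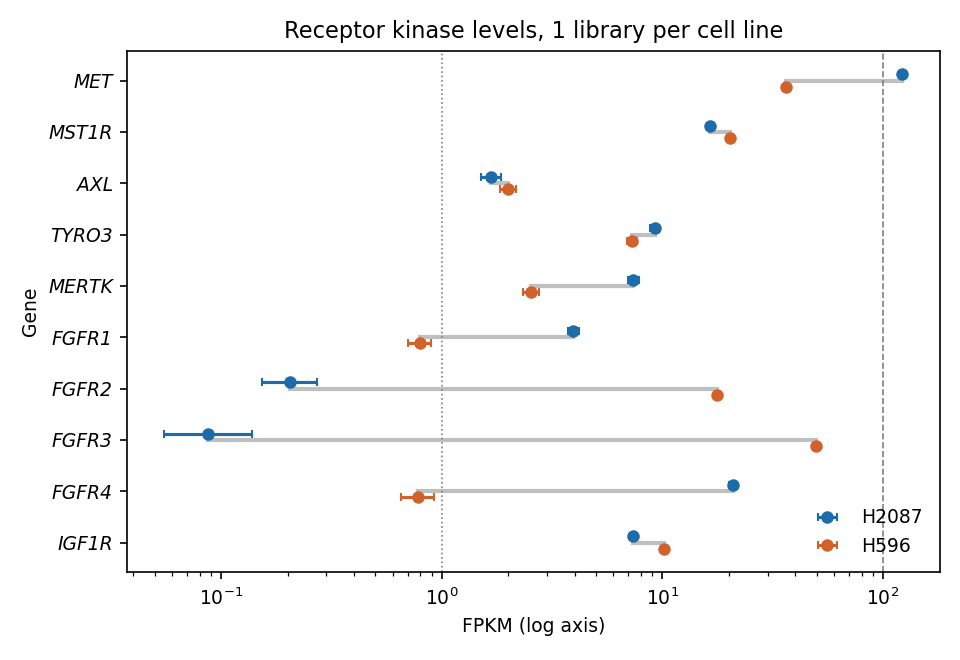
FPKM of the 10 receptor genes in H2087 (blue) and H596 (orange) on a log axis, with 95% Wilson intervals for counting error as whiskers, 1 library per cell line; the dotted line marks 1 and the dashed line 100. MET lies above 100 in H2087 alone, at 121.8, and FGFR2 and FGFR3 move from below 1 to 17.6 and 49.6 in H596.

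All 10 receptors passed the filter of a mean FPKM of at least 1, and 6 were called. FGFR2 and FGFR3 were higher in H596, and MET, MERTK, FGFR1 and FGFR4 were lower. Among all 13048 genes that passed the filter, 32.4% were called, 18.2% higher and 14.2% lower in H596. The median difference of the 10 receptors was -0.07, against 0.12 over all genes that passed.

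MET was the highest of the 10 receptors in H2087. It had an FPKM of 121.8 (95% interval, 121 to 123) from 38063 counts in H2087 and of 36.3 (95% interval, 35.7 to 36.9) from 13404 counts in H596. The level was 3.35-fold higher in H2087 (95% interval, 3.29 to 3.42), a difference of -1.72. In H2087 it ranked 571 among all genes and was the only one of the 10 at or above the FPKM of 100 that the study used to choose genes. None of the 10 reached 100 in H596, where MET ranked 2167. MET made up 64.5% of the summed FPKM of the 10 receptors in H2087 and 24.6% in H596.

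MST1R, the closest relative of MET, was at 16.4 FPKM (95% interval, 15.9 to 17.0) in H2087 against 20.3 (95% interval, 19.7 to 20.9) in H596, from 3528 and 5155 counts. The difference of 0.29 exceeded counting error and was not called. MET was 7.42 times the level of MST1R in H2087 and 1.79 times in H596.

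HGF, the ligand of MET, had 0 counts in both libraries. The 3 counts that a count of 0 allows would be a CPM (counts scaled to library size) of 0.0639 in H2087 and 0.0542 in H596, so HGF mRNA was not detectable at this depth. MST1, the ligand of MST1R, was at 0.186 FPKM in H2087 against 3.84 in H596, from 21 and 504 counts. MST1 has near-identical copies, and MST1P2 was listed at 0.694 in H2087 and 3.45 in H596, so reads of these loci cannot be assigned with certainty to MST1.

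Pro-HGF is cut to its active form by serine proteases, which the membrane proteins encoded by SPINT1 and SPINT2 inhibit. Of 5 genes listed for this step, 4 passed the filter, 1 was called higher in H596 and 1 lower. The protease gene HPN, which encodes hepsin, was at 7.51 FPKM in H2087 against 0.0447 in H596, the latter from 7 counts. SPINT1 had 54.1 in H2087 and 213 in H596, a 3.94-fold higher level in H596 (95% interval, 3.83 to 4.04). The protease gene ST14, which encodes matriptase, was at 131 and 91.8 and was not called, and neither was SPINT2, at 191 and 284. Of 6 genes for partners and adaptors of MET, PLXNB1, a semaphorin receptor that associates with MET, had 3.19 in H2087 and 38.2 in H596. ITGB4, the laminin-binding integrin beta 4 subunit, had 9.57 and 134. These were the calls in the list, both higher in H596, and GAB1, GRB2, CBL and CD44 were not called.

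The transcripts of both receptors were next compared. In MET, the transcript NM_000245 held 94.3% of the FPKM in H2087 and 93.6% in H596. NM_001127500, which is 54 bases longer at the start of exon 10, held 2.21% and 2.59%. NM_001324401, which ends before exon 13, the exon of the membrane-spanning part, held 3.21% and 3.69%. The proportions of the MET transcripts thus differed by less than 1 percentage point between libraries in which the level of MET itself differed 3.35-fold. H596 is known from other work as a line whose MET mRNA skips exon 14, which holds the docking site of the ubiquitin ligase CBL. That exon is 141 bases long in the reference, no listed MET transcript is shorter than NM_000245 by that length, and skipping could not be read from these values.

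In MST1R, the full-length transcript NM_002447 held 49.3% of the FPKM in H2087 and 49.7% in H596. NM_001244937, which lacks the 147 bases of exon 11, held 21.9% in H2087 and 31.9% in H596. By counts this was 757 of 3528 in H2087 (21.5%; 95% Wilson interval, 20.1 to 22.8) and 1610 of 5155 in H596 (31.2%; 95% Wilson interval, 30.0 to 32.5). The noncoding transcript NR_134919 went the other way, from 26.9% to 18.4%. StringTie divides reads between transcripts that share most exons, and the error of this division is not covered by the intervals.

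The bases by which these transcripts of MET and MST1R differ are shown from the hg19 reference, with the alternative bases in capitals and flanking bases in lower case. Capitals in the MET sequence are chr7:116399391-116399444, plus strand, and capitals in the MST1R sequence are chr3:49933394-49933540, minus strand. The length of each is a multiple of 3, so the reading frame is kept with or without it.
MET start of exon 10: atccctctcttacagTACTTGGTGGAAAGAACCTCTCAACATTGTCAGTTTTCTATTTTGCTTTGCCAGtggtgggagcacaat
MST1R exon 11: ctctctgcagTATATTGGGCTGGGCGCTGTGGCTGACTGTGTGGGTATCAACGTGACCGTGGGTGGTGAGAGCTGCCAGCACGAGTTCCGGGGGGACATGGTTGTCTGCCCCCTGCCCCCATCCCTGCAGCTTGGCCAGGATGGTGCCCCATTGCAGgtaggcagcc

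In the TAM family, TYRO3 was the highest in both libraries and MERTK was the only member called. TYRO3 was at 9.22 FPKM (95% interval, 8.80 to 9.67) in H2087 against 7.29 (95% interval, 6.94 to 7.65) in H596, a difference of -0.30. MERTK had 7.39 (95% interval, 7.0015 to 7.81) in H2087 and 2.55 (95% interval, 2.34 to 2.77) in H596. It was 2.90-fold higher in H2087 (95% interval, 2.62 to 3.22), from 1286 and 525 counts. MERTK is also a receptor of macrophages. The leukocyte markers PTPRC and CD3E had 0 counts in both libraries, CD14 was at 0.421 and 0.157, and CD68, which many cell types express in lysosomes, was called lower in H596, at 128 and 25.6.

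AXL, which is known for its high level in mesenchymal-like carcinoma cells, was the lowest of the TAM receptors. Its FPKM was 1.67 (95% interval, 1.51 to 1.85) from 381 counts in H2087 and 1.996 (95% interval, 1.83 to 2.17) from 533 counts in H596. The intervals of these levels overlapped narrowly, the interval of the difference of 0.16 ran from 0.04 to 0.30, and by the highest single transcript the difference was -0.20. No direction was therefore read for AXL. The summed FPKM of the TAM receptors was 18.3 in H2087 and 11.8 in H596.

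Both TAM ligands were detected. PROS1, which encodes protein S, was at 25.2 FPKM in H2087 against 15.5 in H596 and was not called. GAS6 had 0.768 in H2087 and 3.93 in H596, a 5.12-fold higher level in H596 (95% interval, 4.11 to 6.44). PROS1 was thus the higher ligand mRNA in each library. Of the proteases that shed TAM receptors from the cell surface, ADAM10 was called higher in H596, at 29.1 and 79.2, and ADAM17, at 16.1 and 15.4, was not.

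The AXL transcripts differ by the 27 bases of exon 10, which encode a part of the receptor outside the membrane. NM_021913, which has the exon, held 73.1% of the AXL FPKM in H2087 and 46.9% in H596. NM_001699, which lacks it, held 26.9% and 46.4%. By counts the form without exon 10 was 102 of 381 in H2087 (26.8%; 95% Wilson interval, 22.6 to 31.4) and 249 of 533 in H596 (46.7%; 95% Wilson interval, 42.5 to 51.0). These intervals did not overlap, although the level of AXL differed little. They do not cover the error of dividing reads between forms that differ by 27 bases. A further transcript, NM_001278599, had 0 counts in H2087 and held 6.68% of the FPKM in H596. MERTK was listed with 1 transcript, and in TYRO3 NM_006293 held 99.9% of the FPKM in H2087 and all of it in H596. The AXL exon is at chr19:41745599-41745625 of hg19, plus strand, in capitals.
AXL exon 10: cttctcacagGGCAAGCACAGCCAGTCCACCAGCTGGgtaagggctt

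The largest differences among the 10 receptors were in the FGFR family. FGFR3 had an FPKM of 0.0874 (95% interval, 0.0553 to 0.138) from 18 counts in H2087 and 49.6 (95% interval, 48.7 to 50.4) from 12050 counts in H596. This was 567-fold higher in H596 (95% interval, 359 to 957). FGFR2 had 0.205 (95% interval, 0.154 to 0.273) from 46 counts in H2087 and 17.6 (95% interval, 17.1 to 18.1) from 4271 counts in H596. It was 85.8-fold higher in H596 (95% interval, 64.2 to 117). The differences were 5.54 for FGFR3 and 3.95 for FGFR2, ranks 26 and 115 among the 13048 genes ordered from the highest difference towards H596.

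FGFR4 and FGFR1 were on the other side. FGFR4, the receptor that liver cells use for FGF19, had an FPKM of 20.8 (95% interval, 20.1 to 21.5) from 3083 counts in H2087 and 0.778 (95% interval, 0.655 to 0.923) from 131 counts in H596. It was 26.7-fold higher in H2087 (95% interval, 22.5 to 32.1), and its difference of -3.62 ranked 138 from the lowest of all genes that passed. FGFR1 had 3.95 (95% interval, 3.72 to 4.19) in H2087 and 0.796 (95% interval, 0.706 to 0.897) in H596, from 1098 and 267 counts. It was 4.96-fold higher in H2087 (95% interval, 4.34 to 5.69), a difference of -1.46. By the highest single transcript in each library the FGFR1 difference was -0.17 and was not called, and 5 FGFR1 transcripts shared all but 1 of the H2087 counts.

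The FGFR mRNA of the cell lines was thus mainly from different members, although each was detected in both. FGFR1 and FGFR4 together held 98.8% of the summed FGFR FPKM in H2087 and 2.29% in H596, while FGFR2 and FGFR3 held 1.17% and 97.7%. The sum itself was 25.0 in H2087 and 68.7 in H596. Among 58 receptor tyrosine kinase genes, the 2 with the levels closest to those of FGFR3, after FGFR2 itself, were EPHB3 and EPHB2, both ephrin receptors. Their distances in log2(FPKM + 1) over the 2 libraries were 2.81 and 2.94, against 1.45 between FGFR3 and FGFR2. For FGFR2 the closest after FGFR3 were EPHA6, at 1.68, and EPHB3, at 1.76. With 2 libraries this is a likeness of levels only.

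**Figure D2:**
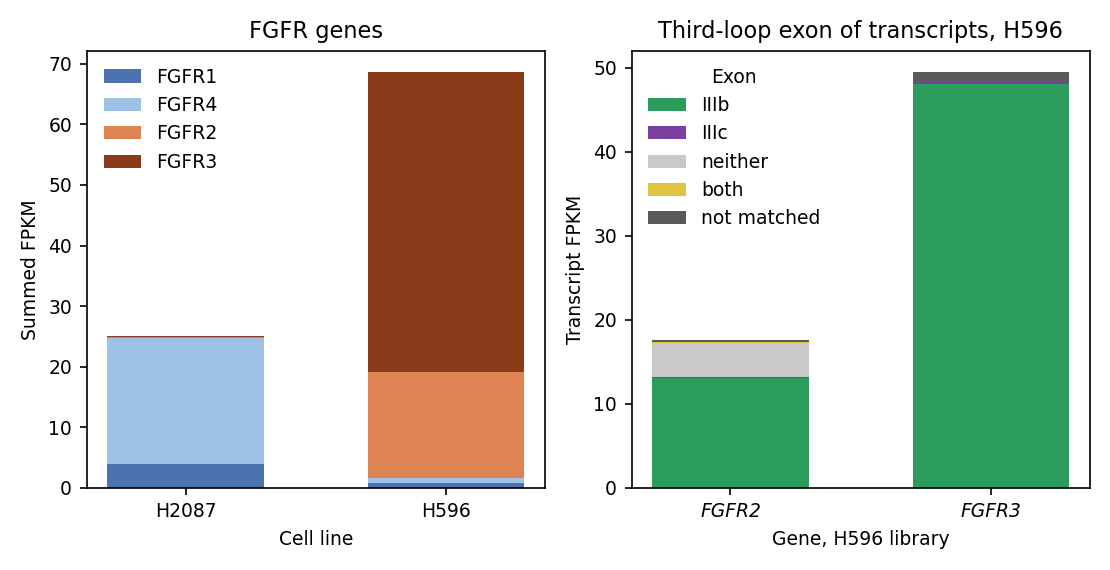
Left, summed FPKM of the 4 FGFR genes in each cell line, stacked by gene; right, transcript FPKM of FGFR2 and FGFR3 in H596, stacked by the exon that encodes the end of the third loop (IIIb, IIIc, neither, both, or a transcript not matched to the reference). FGFR4 fills most of the H2087 bar of 25.0, FGFR3 and FGFR2 fill the H596 bar of 68.7, and IIIb transcripts make up 13.03 of 17.6 for FGFR2 and 48.1 of 49.6 for FGFR3.

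The ligand specificity of FGFR1, FGFR2 and FGFR3 is set by alternative exons, called IIIb and IIIc, that encode the end of the third immunoglobulin-like loop. IIIb forms are typical of epithelial cells and respond to ligands such as FGF7 and FGF10 (FGFR2) made by stromal cells, and IIIc forms are typical of mesenchymal cells. Of the 45 listed transcripts, 37 had the length of a GENCODE transcript of the same gene after correction for different outer ends. Of these, 34 matched a single GENCODE transcript. Inner exons were not compared one by one, so the forms named here rest on length. In FGFR2, the IIIb exon is 148 bases long, and NM_022970 is 3 bases longer than NM_000141. In FGFR3, the IIIb and IIIc exons are 151 and 145 bases long, and NM_001163213 is 6 bases longer than NM_000142. The exons of the leading forms and the FGFR3 IIIc exon are shown because they decide the form, in the direction of transcription, with the exon in capitals and intron bases in lower case. Their hg19 positions are chr10:123278196-123278343 for the FGFR2 IIIb exon, on the minus strand, and chr4:1804641-1804791 and chr4:1805419-1805563 for the FGFR3 IIIb and IIIc exons, on the plus strand.
FGFR2 exon IIIb: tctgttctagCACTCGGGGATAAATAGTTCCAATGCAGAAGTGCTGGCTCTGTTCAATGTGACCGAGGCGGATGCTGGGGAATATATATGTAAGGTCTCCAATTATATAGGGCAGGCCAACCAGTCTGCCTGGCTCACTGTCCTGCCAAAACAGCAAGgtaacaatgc
FGFR3 exon IIIb: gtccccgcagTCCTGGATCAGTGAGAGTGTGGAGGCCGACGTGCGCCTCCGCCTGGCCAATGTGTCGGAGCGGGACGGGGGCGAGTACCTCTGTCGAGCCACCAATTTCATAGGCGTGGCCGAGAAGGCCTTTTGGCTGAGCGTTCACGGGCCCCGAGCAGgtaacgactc
FGFR3 exon IIIc: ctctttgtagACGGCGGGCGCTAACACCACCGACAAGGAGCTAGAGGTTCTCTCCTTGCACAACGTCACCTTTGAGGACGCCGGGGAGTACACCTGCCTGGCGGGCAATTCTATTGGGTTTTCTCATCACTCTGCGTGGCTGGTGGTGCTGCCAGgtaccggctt

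In an alignment over their whole length, the IIIb exons of FGFR2 and FGFR3 had 56.8% identical bases, and the IIIb and IIIc exons of FGFR3 had 48.1%. Each exon shown is preceded by the bases ag and followed by gt.

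In H596, transcripts with the IIIb exon predominated in both genes. In FGFR3, the IIIb transcript NM_001163213 had an FPKM of 48.1 and held 11715 of 12050 counts (97.2%; 95% Wilson interval, 96.9 to 97.5). The IIIc transcript NM_000142 had 0.306 from 75 counts. NM_022965, with 1.16 from 260 counts, is 336 bases shorter than NM_000142. This is the summed length of exons 8 (145 bases) and 9 (191 bases), the IIIc exon and the exon of the membrane-spanning part. Exon 7 is also 191 bases long, so the length does not tell which exons are absent. NM_022965 was not matched to a reference transcript, so its structure is known by length only. In FGFR2, 3 IIIb transcripts had a summed FPKM of 13.03 and 3155 of 4271 counts (73.9%; 95% Wilson interval, 72.5 to 75.2), and 4 IIIc transcripts had 0.109 from 25 counts. Of the FPKM of IIIb and IIIc transcripts together, IIIb transcripts held 99.2% in FGFR2 and 99.4% in FGFR3.

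The other FGFR2 reads in H596 were mainly given to NM_001144917, with an FPKM of 4.13 from 1006 counts. The matching reference transcript lacks the IIIb and IIIc exons and the following 203-base exon, in which the FGFRs carry the membrane-spanning part. Within the IIIb group, NM_001144919 and NM_001144913, which end in another last exon than NM_022970, had a summed FPKM of 2.93, or 16.7% of the gene. The reference transcript matched to NM_001144919 also lacks exon 3, of 267 bases. In H2087 all 46 FGFR2 counts were given to NM_022970 and all 18 FGFR3 counts to NM_001163213, both IIIb forms. The 3 counts that a count of 0 allows would be 6.52% of the FGFR2 counts there. The splicing factors ESRP1 and ESRP2, which promote the IIIb exon in epithelial cells, were not called. ESRP1 was at 47.8 FPKM in H2087 against 54.5 in H596, and ESRP2 had 19.3 and 19.5.

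In FGFR1, exon 3 encodes the first immunoglobulin-like loop and is 267 bases long. Transcripts without it, NM_023105 and NM_023106, held 433 of 1098 counts in H2087 (39.4%; 95% Wilson interval, 36.6 to 42.4) and 21 of 267 in H596 (7.87%; 95% Wilson interval, 5.20 to 11.7). By these estimates the form without the first loop was a larger share of FGFR1 in H2087. The leading transcripts there had 188 to 261 counts each, and the intervals do not cover the error of dividing reads between them. The leading FGFR1 transcript of H596, NM_023110, held 89.2% of the FPKM there and 16.8% in H2087. It matched 2 reference transcripts that differ in their IIIb or IIIc exon (151 and 145 bases) and also in exon 4 (84 and 90 bases), so their lengths agree. The match by length therefore did not resolve its form. In FGFR4, the full-length transcripts NM_002011 and NM_213647 held 64.9% and 29.5% of the FPKM in H2087. In H596, 68 of the 131 FGFR4 counts (51.9%; 95% Wilson interval, 43.4 to 60.3) were given to NM_022963. The reference transcript matched to it lacks exon 9, the exon of the membrane-spanning part, and starts within exon 2. It also keeps the intron between exon 9 and the following exon. That exon is then 220 bases long, of which 146 are shared with the full-length form. Whether the reads behind these counts came from spliced RNA was not tested. No share of FGFR4 mRNA without exon 9 was therefore read from them. In H2087 the same transcript had 14 of 3083 counts.

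**Figure D3:**
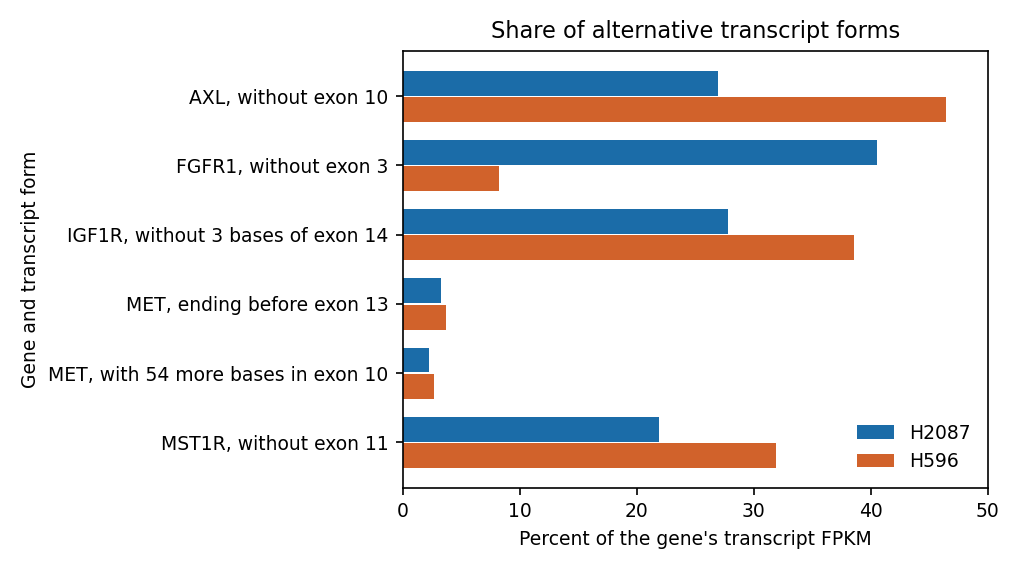
Share of each gene's summed transcript FPKM, in percent, held by 6 alternative transcript forms of AXL, FGFR1, IGF1R, MET and MST1R in H2087 (blue) and H596 (orange), from StringTie estimates with no error shown. The forms without the membrane-spanning exon of FGFR2 and FGFR4 are not drawn. AXL without exon 10 is at 26.9% against 46.4%, FGFR1 without exon 3 at 40.6% against 8.22%, and the MET forms are at 2.21% to 3.69%.

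Of 18 secreted FGF genes, 17 had an FPKM below 1 in both libraries, and the exception was FGF2. FGF2, which acts on several FGFRs but poorly on FGFR2 IIIb, had an FPKM of 1.65 from 635 counts in H596 and 0 counts in H2087. As CPM this was at least 179-fold higher in H596, taking 3 counts as the limit in the H2087 library. FGF7 and FGF10, which are among the ligands of FGFR2 IIIb, had 0 counts in both libraries. FGF19, a ligand of FGFR4, had 14 counts in H2087 and 0 in H596.

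Among 14 genes for FGF coreceptors, carriers and signal proteins, 9 passed the filter, 1 was called higher in H596 and 5 lower. The median difference of the 9 was -1.67, against 0.12 over all genes that passed, of which 18.2% were called higher and 14.2% lower. The list is small and mixed, and no result about FGF signaling was read from it. FGFBP1, a carrier that releases FGFs from the matrix, was at 2.92 FPKM in H2087 against 44.9 in H596. SPRY2 and SPRY4, feedback inhibitors that are themselves induced by receptor tyrosine kinase signaling, had 17.8 and 13.2 in H2087 and 1.796 and 0.0397 in H596. SPRY1, of the same family, was at 7.41 in H2087 against 4.74 in H596 and was not called. The related inhibitors SPRED1 and SPRED2 had 11.9 and 26.5 in H2087 and 2.06 and 5.07 in H596. FGFRL1, a receptor without a kinase domain, had 23.8 and 6.78. All 5 genes called lower were higher in H2087 by 3.51-fold or more. FRS2 and FRS3 also passed the filter and were not called. The coreceptors KL and KLB were below an FPKM of 1 in both libraries.

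IGF1R differed little between the cell lines. Its FPKM was 7.35 (95% interval, 7.14 to 7.58) from 4313 counts in H2087 and 10.2 (95% interval, 9.94 to 10.4) from 7064 counts in H596. The difference of 0.42 exceeded counting error and was not called. IRAIN, a noncoding gene that overlaps the start of IGF1R, had 53 and 11 counts. The related insulin receptor gene INSR was called higher in H596, with 0.664 in H2087 against 4.20 in H596, so that IGF1R was 11.1 times the level of INSR in H2087 and 2.42 times in H596. IGF2R, a receptor that removes IGF2 and has no kinase, was at 18.8 and 15.5 and was not called.

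The listed IGF1R transcripts differ by 3 bases at the start of exon 14, where a repeat of the bases cag gives alternative splice acceptors. The shorter form, NM_001291858, held 1198 of 4313 counts in H2087 (27.8%; 95% Wilson interval, 26.5 to 29.1) and 2726 of 7064 in H596 (38.6%; 95% Wilson interval, 37.5 to 39.7). The alternative bases are chr15:99472787-99472789 of hg19, plus strand, in capitals. Division of reads by so short a stretch rests on the few reads that cross it.
IGF1R start of exon 14: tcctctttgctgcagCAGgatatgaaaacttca

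The ligands and carriers of the IGF pathway differed more than the receptor. IGF2 had an FPKM of 0.0778 from 20 counts in H2087 and 43.2 from 12372 counts in H596, 555-fold higher in H596 (95% interval, 359 to 909). IGF1 was below an FPKM of 1 in both libraries, with 0.00844 from 3 counts in H2087 and 0.752 from 138 counts in H596. By TPM it was at 1.82 in H596. INS had 0 counts. IGF binding proteins hold IGFs in the extracellular space and limit or prolong their action. Of 7 such genes, 6 passed the filter, 3 were called higher in H596 and 2 lower. IGFBP3 had 14.3 in H2087 and 951 in H596, 66.7-fold higher in H596 (95% interval, 63.7 to 69.9). IGFBP7 had 0.449 and 76.9, and IGFBP5 had 0.187 and 3.14. IGFBP4 had 31.9 in H2087 and 0.142 in H596, and IGFBP6 had 29.9 and 10.4. IGFBP2, at 52.4 and 32.1, was not called, and IGFBP1 was below the filter. The summed FPKM of the 7 genes was 130.45 in H2087 and 1074 in H596. The adaptors IRS1, at 8.54 in H2087 and 7.38 in H596, and GRB10, at 14.1 and 12.3, were not called. The adaptor IRS2, at 7.10 and 3.18, was 2.23-fold higher in H2087 (95% interval, 2.08 to 2.39). Its difference of -0.95 fell just short of a call. STC2, an inhibitor of IGF binding protein cleavage, was at 55.7 and 36.4 and was not called.

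**Figure D4:**
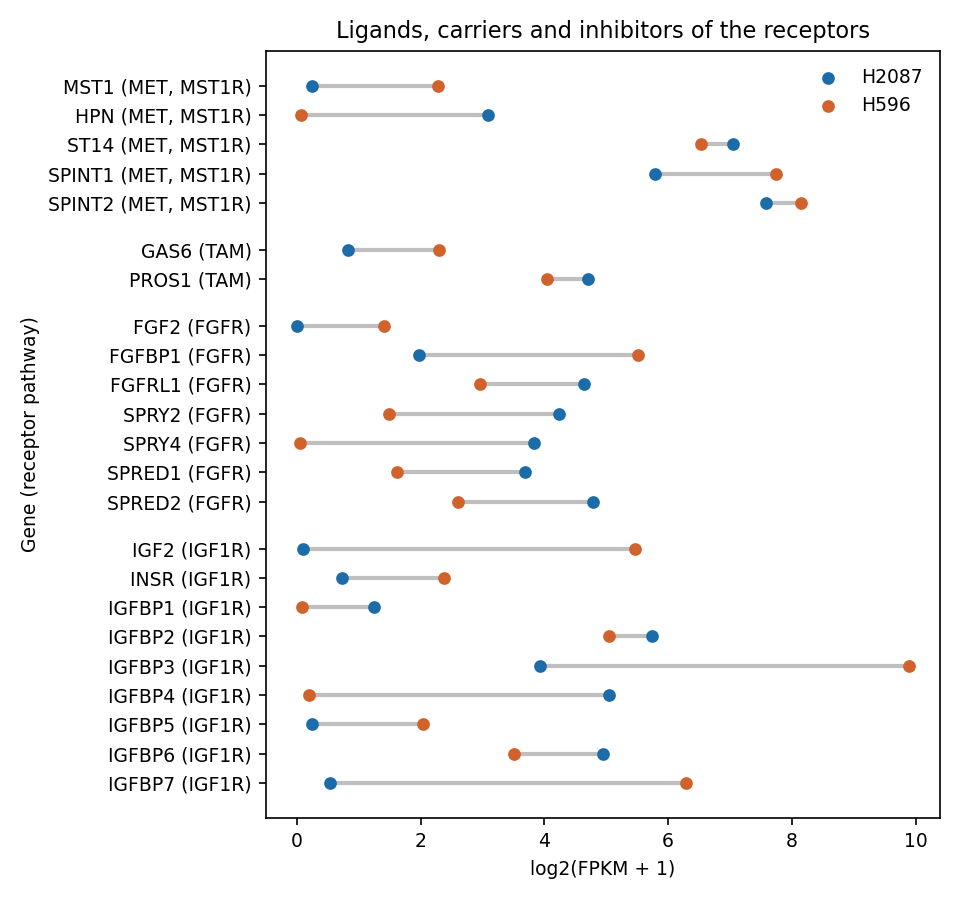
Levels on the log2(FPKM + 1) scale of ligands, carriers, proteases, inhibitors and the related receptors INSR and FGFRL1 in H2087 (blue) and H596 (orange), grouped by receptor pathway, 1 library per cell line and no error shown. SPRY2, SPRY4, SPRED1 and SPRED2 lie higher in H2087, and IGF2, IGFBP3 and IGFBP7 lie higher in H596, with IGFBP3 at an FPKM of 951.

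Against the other receptor tyrosine kinases, MET ranked 1 of 58 in H2087 and 7 in H596, and FGFR3 ranked 37 in H2087 and 4 in H596. FGFR2 moved from rank 32 to 10, FGFR4 from 8 to 31 and FGFR1 from 18 to 30. MST1R, at 10 and 9, TYRO3, at 13 and 16, IGF1R, at 15 and 13, and AXL, at 24 and 25, kept similar places, and MERTK was at 14 and 24. MET was the only one of the 58 genes that reached 100 FPKM in H2087, and EGFR and DDR1 did so in H596. Of the 48 other receptor tyrosine kinases, 20 passed the filter. EGFR, ERBB2, INSR, PTK7, EPHA4, EPHA6, EPHB2, EPHB3 and DDR1 were called higher in H596, and ERBB3, KDR and EPHB4 were called lower. These were 9 higher and 3 lower of the 20 others that passed, and 2 higher and 4 lower of the 10 receptors, where 18.2% of all genes that passed were called higher and 14.2% lower. Without the filter the 48 others had 10 past the threshold higher and 7 lower in H596, and the 10 receptors had the same counts as with it. The 4 further genes on the lower side, CSF1R, FLT4, EPHB1 and LTK, which were named after their values were seen, were between 1.001 and 1.61 FPKM in H2087 and at 0 in H596, and no contrast between the sets was read from these counts. The summed FPKM of the 48 was 246 in H2087 and 739.7 in H596, while that of the 10 was 189 and 147.

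**Figure D5:**
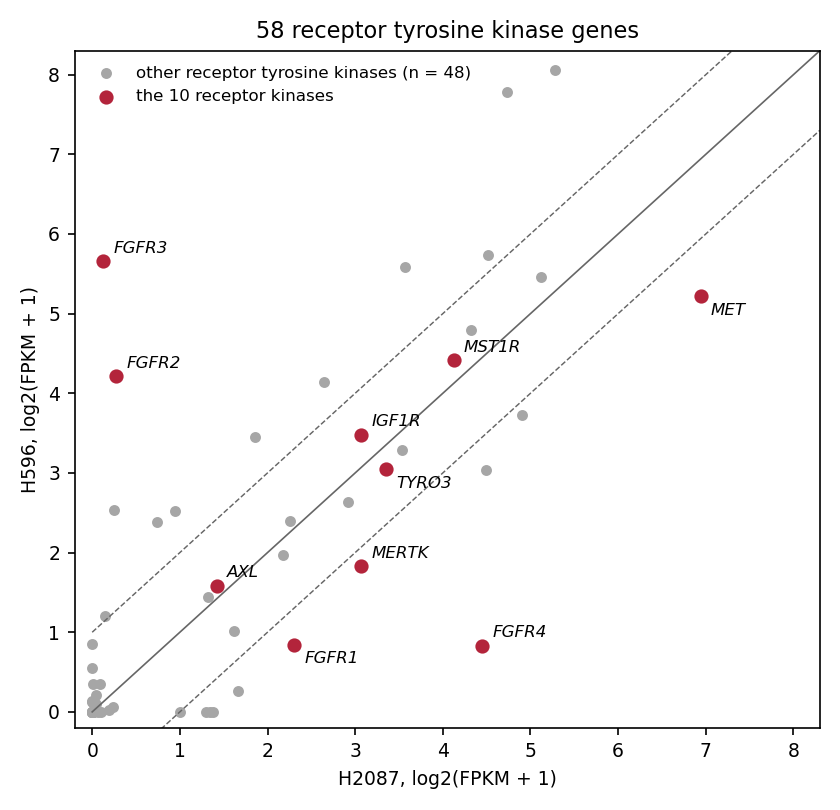
log2(FPKM + 1) of 58 receptor tyrosine kinase genes in H2087 (horizontal) and H596 (vertical), with the 10 receptor kinases in red and the other 48 in grey; the solid line marks equal levels and the dashed lines a difference of 1. FGFR3 and FGFR2 lie far above the lines, at 49.6 and 17.6 in H596, and FGFR4, MET, FGFR1 and MERTK lie below them.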

How the data were processed

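RNA-seq data of 2 libraries were used, 1 of H2087 and 1 of H596. The authors isolated total RNA with TRIzol, prepared stranded mRNA libraries and sequenced them on an Illumina instrument. Per the labels, the tools were bcl2fastq 1.8.4, Trimmomatic, HISAT2 2.0.5 and StringTie 1.3.3b, with hg19. Per transcript and per gene, the authors deposited estimated counts, all whole; their derivation is not given in the sources used here, and they were taken as rounded. The authors also deposited FPKM, which scales by transcript length and library size. The gene values of the 10 receptors equal the sum over their listed transcripts.

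Differences were taken between log2(FPKM + 1) values among genes whose FPKM averaged 1 or more. With 1 library per cell line, no test was made. Intervals (scipy 1.17.1) cover counting error only, and if both mates of a fragment were counted they are too narrow. Transcripts were matched by length, after correction for different outer ends, to GENCODE release 44 on GRCh37, the same build as hg19. Exon sequences were read from that genome. The sequence of 1 exon is not reported here. Alternatives included TMM scaling (edgeR 4.0.16, R 4.3.3), TPM and a pseudocount of 0.1. From each gene list, all genes called and the ligands with an FPKM of at least 1 were named. Other listed genes are given for completeness. The receptors and lists were chosen with earlier results of these data known. Python 3.11.15, numpy 2.4.6, pandas 2.3.3 and Biopython 1.88 were used.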

Additional observations from a re-analysis of the deposited data

How the results depend on the processing

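Of 60 differences of the 10 receptors recomputed under 6 alternatives, 59 kept their sign and 35 lay outside the counting interval of the reported value. In 1 of the 6, the sum over all transcripts, the 10 differences repeat the reported values and could not move. The change of sign was in AXL, at -0.20 by the highest single transcript. The number of receptors called, 6, became 3 under a filter at a mean FPKM of 10, since 4 receptors passed that filter, and 3 at a 4-fold threshold (FGFR2, FGFR3 and FGFR4). It was 5 by the highest single transcript and 6 otherwise. It could not change with the sum over all transcripts or without the filter, which all 10 receptors had passed. The number of all genes called, 4226, became 1986 with the filter of 10, 7124 at a 1.5-fold and 1322 at a 4-fold threshold, and lay between 4162 and 4939 otherwise. The median difference of all genes, 0.12, was 0.01 with TMM scaling and 0.30 in TPM, and the share of calls that were higher in H596, 56.2%, was 50.5% and 65.6%, and 49.1% after centring on the median. With a pseudocount of 0.1 the differences of FGFR2 and FGFR3 were 5.86 and 8.05. The number of receptors at an FPKM of 1, 8 in each library, was 8 in H2087 and 10 in H596 both at an FPKM of 0.5 and at a TPM of 1, 7 in each by the highest single transcript and 6 in each at an FPKM of 5. No paired analysis was possible because there was 1 library of each line, and none could be left out. Depth limits the transcript forms of FGFR2 and FGFR3 in H2087, which had 46 and 18 counts.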
